A study of Homo sapiens with 4 samples.

Results

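Among the array probes of 4 unstressed Nalm-6 cell lines, 87 were higher both in Arp8 KO cells and on an array labelled Arp8 overexpression, here the Arp8 arrays, than in wild-type and Arp5 KO cells. They were chosen by the signals themselves, as probes well above background on all 4 arrays, with a processed signal of 50 units or more on both Arp8 arrays. For each probe the lower of the Arp8 arrays had to exceed the higher of wild-type and Arp5 KO by more than 0.8 on the log2 scale, which is 1.74-fold. This difference is called the gap below. Of 41000 probes, 27921 were well above background on all 4 arrays and 23299 also met the signal limit. The 87 are 0.373% of these, and they carry the names of 68 genes, while 13 probes have no gene name here. With directions turned and the signal limit set on wild-type and Arp5 KO, 175 of 23416 probes (0.747%) were lower on both Arp8 arrays by the same gap. All values used in the choice are description and support nothing further.

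Nalm-6 is a human pre-B leukemia cell line. Its Arp5 and Arp8 genes were disrupted by homologous recombination, and a Tet-Off construct was placed in Arp8 KO cells to overexpress Arp8. The state of the Tet-Off switch and the number of clones are not given in the labels. Total RNA of each line, without oxidative stress, was labelled with Cy3 and hybridized to 1 single-color array. The 4 arrays shared a slide and a scan, and between 30394 and 31420 of 43376 spots per array were well above background. Since every genotype stands on 1 array, replicate error cannot be given and no test was made, and a difference between genotypes and one between cultures or clones cannot be told apart. The number of arrays limits the precision.

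INO80 is a chromatin remodeler that moves and edits nucleosomes at promoters, replication forks and DNA breaks. Arp5 and Arp8 are actin-related subunits that sit in different modules of it, Arp8 with actin at the region that contacts linker DNA and Arp5 beside the motor domain at the nucleosome. Pre-B cells use B-lineage transcription factors to keep genes of other blood lineages at low levels.

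The targeted genes were examined first. *ACTR5*, which encodes Arp5, gave 1909 units in wild-type, 65.3 in Arp5 KO, 1849 in Arp8 KO and 2088 on the array labelled Arp8 overexpression, so it was low only where it had been disrupted. *ACTR8*, which encodes Arp8, was read by a pair of probes, the first with 1092, 993, 785 and 679 units in the same order of arrays, and the other with 2149, 2233, 1654 and 1857. Both probes were lower on the Arp8 arrays than on the other arrays, and the array labelled Arp8 overexpression had no excess of *ACTR8* mRNA. In Arp8 KO the log2 difference to wild-type was only -0.49 and -0.39, against -4.84 for *ACTR5* in Arp5 KO, so the signal of the target gene bears out neither Arp8 label. Which part of the disrupted or introduced gene the probes cover was not examined, and both names are used here only as labels. None of the 24 probes for the 16 INO80 complex genes belonged to the 87. Since only 0.373% of all probes that could be chosen did, so few probes would mostly hold none. *INO80* itself, with 6899.8, 12004, 14102 and 8070.0 units on one of its probes, was high in both KO lines and not on the array labelled Arp8 overexpression.

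Markers of the labelled cell type were present on all arrays. All 13 pre-B cell markers were well above background on the 4 arrays, with *TCL1A* the brightest. The median log2 difference to wild-type of their 18 probes was -0.11 in Arp8 KO and 0.01 on the array labelled Arp8 overexpression. Single markers differed more, as *VPREB3* had 10009.5 units in wild-type, 5641 in Arp5 KO, 4411 in Arp8 KO and 10447 for labelled Arp8 overexpression. All 4 plasma cell markers were also well above background on the 4 arrays, so the presence of markers alone does not name the cell type. None of the pre-B cell markers was among the 87, which at the share of 0.373% over all probes says little for so short a list.

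The chosen probes were dim. Their median signal was 87.7 units in wild-type, 71 in Arp5 KO, 274 in Arp8 KO and 266 on the array labelled Arp8 overexpression, against 1267, 1259, 1306 and 1304 for all 23299 probes that could be chosen. Only 17 of the 87 had 1000 units or more on both Arp8 arrays, and 43 were under 50 units in wild-type or Arp5 KO cells. The median gap was 1.06, or 2.09-fold, with 52 gaps above 1, 10 above 1.5 and 4 above 2. The median log2 difference to wild-type was 1.42 in Arp8 KO and 1.43 on the array labelled Arp8 overexpression, values that share the wild-type array and were fixed to be positive by the choice.

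**Figure D1:**
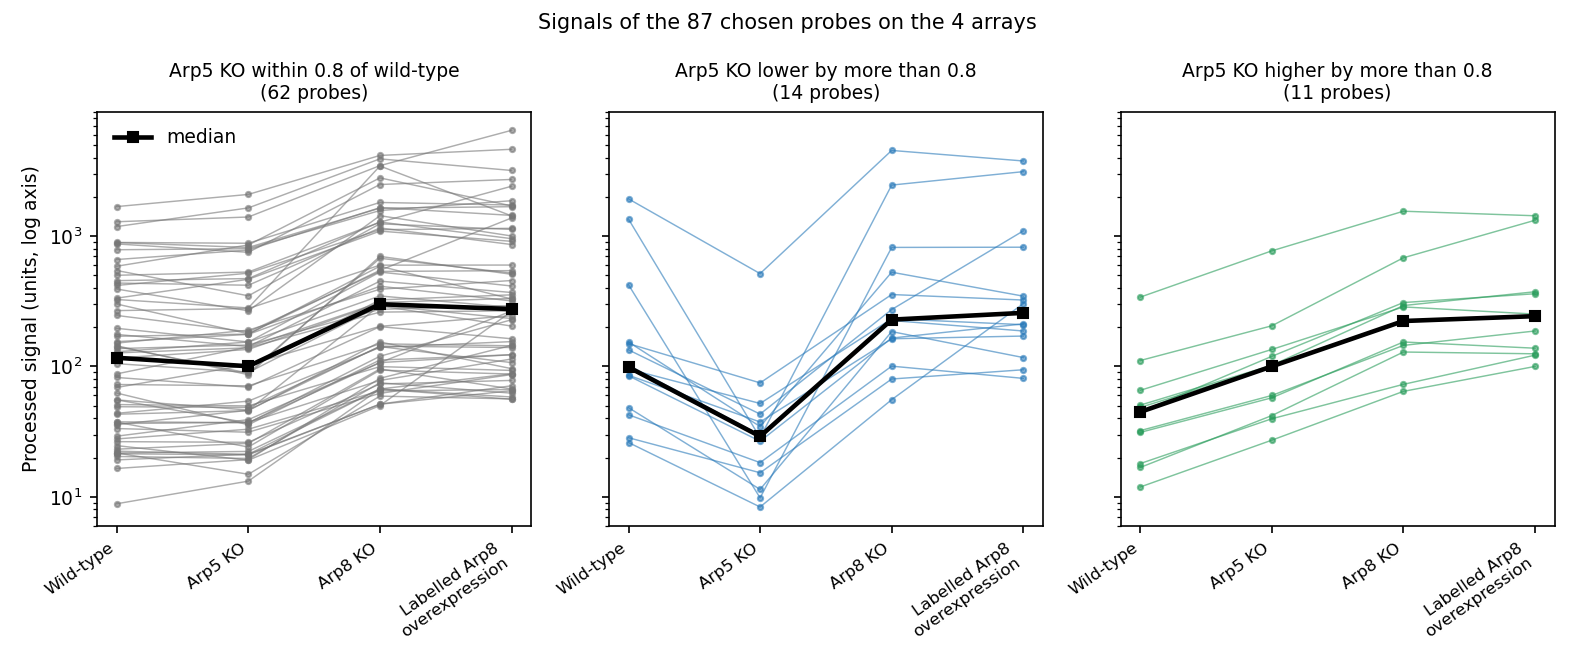
Processed signal (units, log axis) of each of the 87 probes on the 4 arrays, as thin lines, with the median of each panel in black. The panels hold the 62 probes with Arp5 KO within 0.8 (log2) of wild-type, the 14 with Arp5 KO lower and the 11 with Arp5 KO higher.

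Spots repeated on the same array give the only error available, and it is technical. The median SD of the gap over repeated spots was 0.21 for 8 probes whose dimmest signal was under 20 units, 0.12 for 9 probes from 20 to 50 units, 0.05 for 37 probes from 50 to 500 units and 0.03 for 145 brighter ones. Of the 87 probes, 14, 29, 33 and 11 lie in these ranges. Gaps close to 0.8 are therefore within a few SD of the limit for the dimmest probes, while a probe of 500 units or more is measured far more tightly. *PTPRC*, which encodes the leukocyte phosphatase CD45, is the probe among the 87 that was spotted 10 times, with 69 units in wild-type, 103 in Arp5 KO, 203 in Arp8 KO and 245 on the array labelled Arp8 overexpression. Its gap was 0.93 with an SD of 0.051 over the 10 spots.

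**Figure D2:**
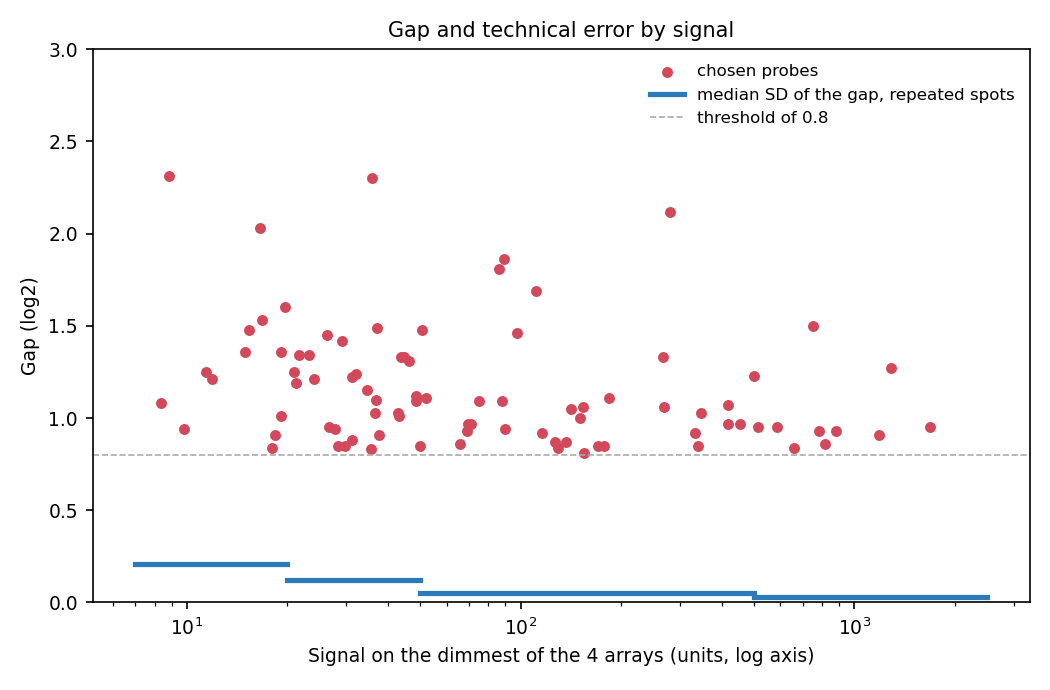
Gap (log2) of each of the 87 probes against its signal on the dimmest of the 4 arrays (units, log axis). Blue bars are the median SD of the gap over repeated spots, from 0.21 under 20 units to 0.03 at 500 units or more, and the dashed line is the limit of 0.8.

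The largest gaps were those of *RAB37*, *GPR162*, *SULF2* and *ATXN1*. *RAB37*, a small GTPase of secretory vesicles, had 8.85 units in wild-type, 13.2 in Arp5 KO, 67.2 in Arp8 KO and 87.7 on the array labelled Arp8 overexpression. Its gap was 2.31 or 4.95-fold, with the low side near the lowest signals that count as above background. *GPR162*, an orphan receptor gene, went from 35.8 and 46.1 to 294 and 233 units in the same order, and its second probe from 20.4 and 19.7 to 74.9 and 62.4. *ATXN1*, which encodes the polyglutamine protein ataxin-1, had 16.5, 19.3, 81.1 and 145 units. In all these genes wild-type and Arp5 KO lay within 0.8 of each other and both Arp8 signals stood well above them. *BACE2*, an aspartyl protease gene, gave nearly the same reading on both of its probes, with 142, 88.9, 675 and 521 units on one and 144, 86.4, 698 and 509 on the other. Another processing was normexp background correction with an added offset, followed by quantile normalization. With it the gap of *RAB37* became 0.88, that of *GPR162* 1.51 and 0.72 on its probes, that of *SULF2* 1.89 and that of *ATXN1* 0.73. The order of the largest gaps thus depends on the processing, and how much of this comes from the treatment of dim signals was not tested. The other genes with more than 1 chosen probe were *TMEM150A*, *ZFYVE28*, *ZNF518B* and *TAGAP*, which makes 6 such genes.

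At the limit itself, the smallest gaps inside were 0.810 for the unnamed probe A_32_P172920, 0.826 for *TAGAP* and 0.838 for *ZFYVE28*. The nearest outside were 0.799 for *BIN1*, 0.798 for *GPRC5C* and 0.798 for *SULT2B1*. These 6 probes differ by less than the technical SD of dim probes, so membership at the edge is arbitrary. Under normexp only 39 of the 87 stayed above the limits. Of the genes described below, *LYZ* (0.71), *PTPRC* (0.67), *CCR1* (0.61), *P2RY14* (0.46), *JCHAIN* (0.79), *TIRAP* (0.49), *ETV7* (0.74), *NEB* (0.56), *PYDC1* (0.63), *CDH4* (0.35), *RRAD* (0.44), *FCGR2B* (0.46), *ST8SIA5* (0.52), *ICAM4* (0.74), *GCNT3* (0.79), *TNFRSF10B* (0.79) and *TP53INP1* (0.79) then fell below the limit. So did *ATOH8*, *EMP3*, *GIMAP1*, *ITGB4*, *KLK1*, *KMO*, *LGALS9C*, *LRG1*, *MOXD1*, *PCNX2*, *PPP1R14A*, *SEPTIN4*, *SSUH2*, *STK32B*, *TCEAL4*, *TMT1A*, both probes of *ZFYVE28* and *TAGAP*, one each of *TMEM150A* and *ZNF518B*, and 7 unnamed probes. Among those that remained were *CD33*, *HCST*, *PYCARD*, *GSTK1*, *BATF*, *MXD4*, *CHST6*, *DSE*, *STAC3* and *TUBA8*.

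To describe the genes they were sorted by known role after their values had been seen. Genes of immune cell surfaces made up 7 of the 68, and genes of immune effectors and signaling another 12. No such sorting was made of the genes that were not chosen, so whether these numbers exceed the usual share was not tested. *CD33*, a sialic acid-binding receptor of myeloid cells, had 587 units in wild-type, 854 in Arp5 KO, 2792 in Arp8 KO and 1703 on the array labelled Arp8 overexpression. *HCST*, which encodes the signaling adaptor DAP10, had 340.0, 769.9, 1550.0 and 1430.4 units, and *CCR1*, a chemokine receptor gene, had 65.6, 135, 286 and 252. Both rise in steps, with Arp5 KO between wild-type and the Arp8 arrays. *P2RY14*, the receptor gene for UDP-glucose, had 26.1, 8.36, 55.6 and 303 units and thus differed across all 4 arrays. The remaining surface genes were *PTPRC*, *FCGR2B* and *ICAM4*, with gaps of 0.93, 0.88 and 0.87.

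Among the effectors, *LYZ*, the lysozyme gene, had 55.4, 46.3, 143 and 139.7 units. The members of each pair of arrays were nearly equal. *RNASE6*, an antimicrobial ribonuclease gene, had 246, 184, 535 and 543 units. *TIRAP*, an adaptor of Toll-like receptors, had 51, 49.8, 99.7 and 93.2. *JCHAIN*, whose product links IgM and IgA into polymers, stood apart with 134, 43.1, 273 and 1095 units, highest by far on the array labelled Arp8 overexpression. *LRG1*, *CTSZ*, *LGALS9C*, *TAGAP* and *GIMAP1* also belong to the group, as do *PYCARD* and *PYDC1*, described below.

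Since *CD33* and *LYZ* mark myeloid cells, the whole marker list was examined. Of its 7 genes, 6 were well above background on all 4 arrays, and *MPO*, myeloperoxidase, was not above background on any. *LYZ* and *CD33* were the only ones chosen. *ITGAM* had 38.4, 28.4, 74.8 and 55.2 units and *CSF1R* 11.1, 11, 16.2 and 25.3, with gaps of 0.51 and 0.52, while *CD14* had 119, 124, 123 and 110.0. The brightest gene of the list was *CEBPA*, with 9071, 7498, 7351 and 8229 units, and neither Arp8 array exceeded wild-type. The summed signal of the 10 probes was 10228 in wild-type, 9018 in Arp5 KO, 11872 in Arp8 KO and 11079.7 on the array labelled Arp8 overexpression. This sum includes the chosen probes of *LYZ* and *CD33*, which the choice made high on the Arp8 arrays. It also includes a second *CD33* probe with 317, 445, 1338 and 795 units, so the sum shows nothing of the other genes. Without the probes of *LYZ* and *CD33*, 4 probes well above background were left, and their median log2 difference to wild-type was 0.28 in Arp8 KO, 0.18 for labelled Arp8 overexpression and -0.12 in Arp5 KO. In bulk RNA, a change in a few cells and a small change in all cells cannot be told apart, and a part of other cells in these values was not tested. Of 6 measured T cell markers, 4 were well above background on all 4 arrays, the brightest being *LCK* with 1390.1, 1047, 528 and 1038 units, and *CD3D* and *CD3G* were not above background on any. Of 3 NK cell markers, *NKG7* was well above background, with 325, 459, 245 and 264 units, and *GNLY* and *KLRD1* were not. None of these T and NK cell markers was among the 87, which at the share of 0.373% over all probes says little for so few probes.

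**Figure D3:**
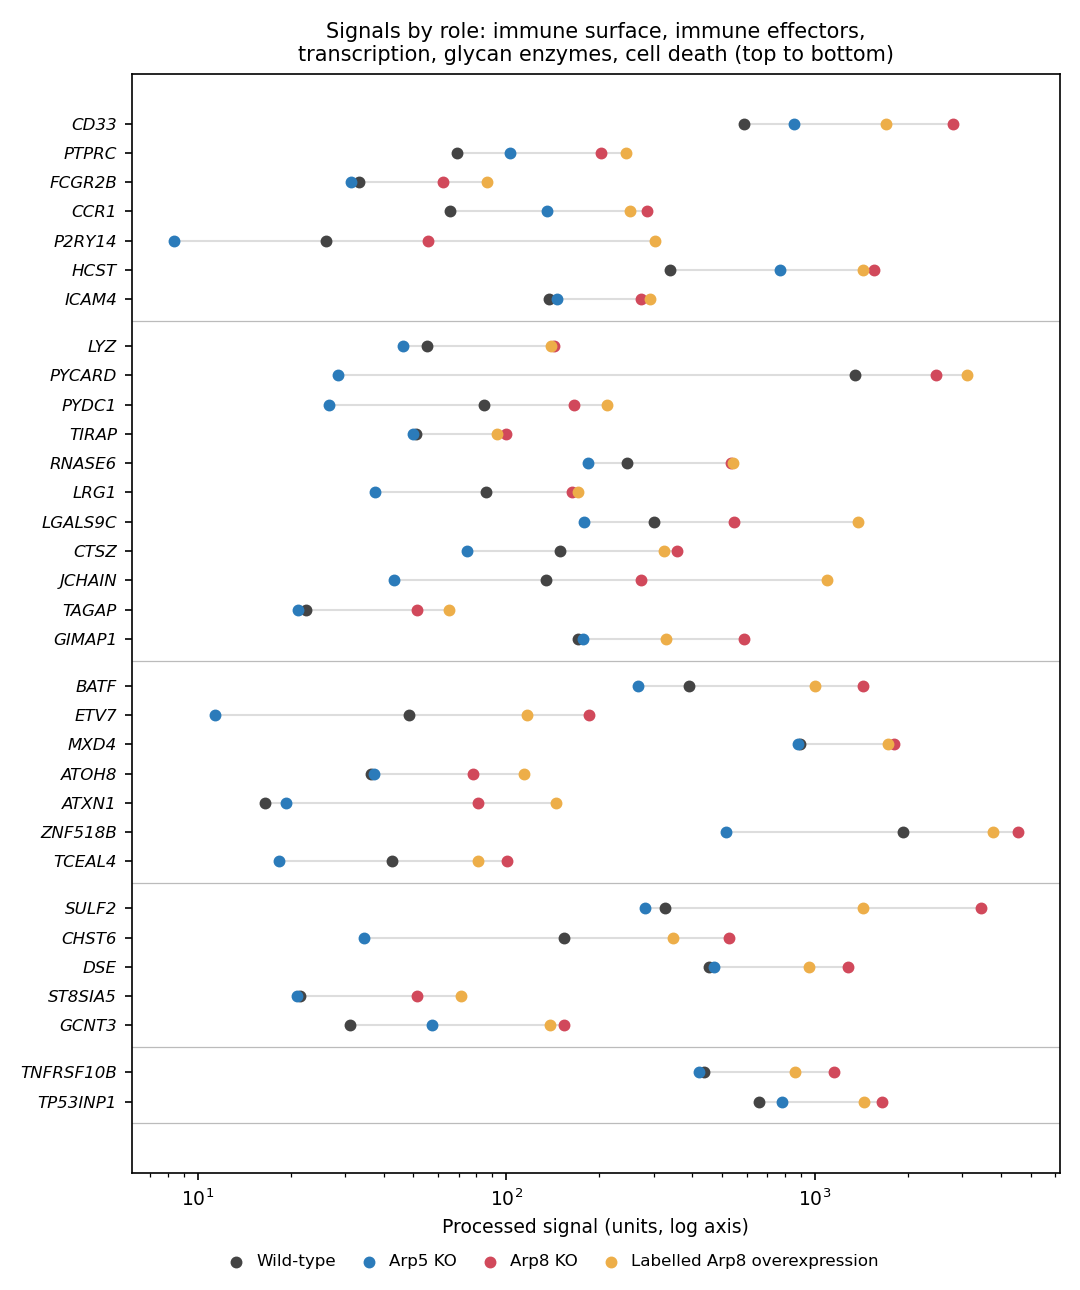
Processed signal (units, log axis) of genes of immune surfaces, immune effectors, transcription, glycan enzymes and cell death on each of the 4 arrays, with 1 chosen probe per gene. In every gene both Arp8 arrays lie to the right of wild-type and Arp5 KO, as the choice requires, and the space between wild-type and Arp5 KO is widest for *PYCARD*, followed by *CHST6*, *ETV7*, *ZNF518B*, *PYDC1*, *P2RY14* and *JCHAIN*.

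Genes of transcription numbered 7 of the 68. *BATF*, a partner of JUN proteins in lymphocytes, had 392 units in wild-type, 267 in Arp5 KO, 1432 in Arp8 KO and 1001 on the array labelled Arp8 overexpression. *ETV7*, an ETS family repressor gene, had 48.3, 11.4, 185 and 117 units, and *ZNF518B*, a zinc finger gene, had 1928, 515, 4533 and 3764 on one of its probes. For these genes Arp5 KO was the lowest array and Arp8 KO the highest. *MXD4*, whose product pairs with MAX and opposes MYC, had 893, 880.3, 1809 and 1729 units, level within each pair. *ATOH8*, *ATXN1* and *TCEAL4* were the others sorted here.

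Enzymes that build or trim sugar chains formed a further group of 5 genes. *SULF2*, an extracellular sulfatase that removes sulfate from heparan sulfate, had 326 units in wild-type, 281 in Arp5 KO, 3443 in Arp8 KO and 1428 on the array labelled Arp8 overexpression, with a gap of 2.12. *CHST6*, a sulfotransferase gene of keratan sulfate, had 154, 34.6, 528 and 346 units. *DSE*, the epimerase gene of dermatan sulfate, had 455, 472, 1281 and 955. All 3 were brightest in Arp8 KO cells. *GCNT3*, a branching enzyme of mucin-type glycans, and *ST8SIA5*, a sialyltransferase gene, had gaps of 1.22 and 1.25.

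Genes known from muscle or the cytoskeleton numbered 10. *STAC3*, needed for excitation-contraction coupling, had 869.9, 750.3, 2484 and 2716 units, and *MYBPH*, which encodes a myosin-binding protein, had a gap of 1.23. *NEB*, the nebulin gene, was dim, with 23.2, 25.7, 95.7 and 67.2 units. *TUBA8*, a tubulin gene with close relatives, had 1287, 1399.6, 3465 and 6465 units. *RRAD*, *PPP1R14A*, *PDLIM2*, *SEPTIN4*, *ABR* and *ARHGEF25* were the others, with gaps from 0.84 to 1.48.

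Enzymes and proteases of other kinds gave 10 genes, *GSTK1*, *KMO*, *SDSL*, *SMPD1*, *AMY1C*, *MOXD1*, *TMT1A*, *KLK1*, *BACE2* and *SPINT1*, with gaps from 0.87 to 1.86. Genes of adhesion, growth factors and membranes gave 6, *ITGB4*, *CDH4*, *NRG3*, *EMP3*, *GPR162* and *TMEM150A*, with gaps from 0.86 to 2.30. The last 9, of trafficking and other roles, were *RAB37*, *ZFYVE28*, *STAU2*, *N4BP2L2*, *PCNX2*, *DAPL1*, *SSUH2*, *KLHL14* and *STK32B*, with gaps from 0.84 to 2.31. Probes for *AMY1C*, *LGALS9C*, *FCGR2B* and *TUBA8* may also read near-identical copies of these genes. The 13 unnamed probes had gaps from 0.81 to 1.53.

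Of 26 gene lists, 2 held chosen probes. The myeloid markers had 2 among 6 probes that could be chosen, and the p53 target genes 2 among 26. Over all probes that could be chosen the share was 0.373%. At that share a short list will mostly hold none, so the empty lists show nothing about their genes. *TNFRSF10B*, a death receptor for TRAIL, had 436 units in wild-type, 419.5 in Arp5 KO, 1153 in Arp8 KO and 861 on the array labelled Arp8 overexpression. Its other probe had 4537, 4149.9, 11582 and 5958 units and a gap of only 0.38. *TP53INP1*, a stress gene that is a target of p53, had 660.5, 781, 1651 and 1440.1 units. Of the 23 probes of the list that belong to neither of these genes, 20 were above wild-type in Arp8 KO and 17 for labelled Arp8 overexpression, where 52.6% and 52.9% of all probes well above background were. *PHLDA3*, whose product restrains AKT, came closest to the limit, with 918, 784, 3302 and 1576 units and a gap of 0.76. *CDKN1A*, the cell cycle inhibitor p21, had 12254, 9788, 28545 and 14443 units on one probe, and *SESN1* had 893, 793, 2394 and 1094, so both were high in Arp8 KO cells and had gaps of only 0.22 and 0.27. *TP53I3*, an oxidoreductase gene, was instead highest on the array labelled Arp8 overexpression, with 1025, 1092, 1307 and 1994 units. *BAX*, which encodes a pore-forming protein of apoptosis, was not above wild-type in Arp8 KO on any of its 3 probes and fell by more than 0.8 on both Arp8 arrays on one of them, with 3495, 3822, 1969 and 1568 units. Over the 23 probes the median log2 difference to wild-type was 0.65 in Arp8 KO, 0.22 for labelled Arp8 overexpression and 0.01 in Arp5 KO.

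The rule did not fix the order within each pair of arrays, and there the genes differed widely. Arp5 KO was within 0.8 of wild-type for 62 of the 87 probes. It was lower by more than 0.8 for 14 probes (16.1%), against 1.18% of all 23299 probes, and higher for 11 (12.6%), against 1.41%. The chosen probes are dim, and dim probes differ more often. Among the 8318 probes with a dimmest signal under 500 units, which include 76 of the 87, the shares were 2.5% and 2.86%. How far signal alone accounts for the difference was not tested further, and the choice itself uses these arrays.

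*PYCARD* and *GSTK1* had the widest separation of Arp5 KO from wild-type. *PYCARD* encodes ASC, the adaptor through which inflammasome sensors recruit caspase-1, and its signal was 1348 units in wild-type, 28.4 in Arp5 KO, 2459 in Arp8 KO and 3117 on the array labelled Arp8 overexpression. *GSTK1*, a glutathione transferase gene of mitochondria and peroxisomes, had 423, 9.82, 818 and 821 units. The log2 difference of Arp5 KO to wild-type was -5.54 and -5.40, whereas both genes lay less than 1 above wild-type in Arp8 KO cells, with 0.85 and 0.94. *CHST6*, *ETV7* and *ZNF518B* followed with -2.13, -2.05 and -1.88. The others lower in Arp5 KO were *PYDC1*, *P2RY14*, *JCHAIN*, *TCEAL4*, *LRG1*, *CTSZ*, *KLK1*, *SPINT1* and the second probe of *ZNF518B*. In the opposite direction *HCST*, *MOXD1*, *PPP1R14A*, *CCR1*, *ARHGEF25*, *DAPL1*, *SSUH2*, *GCNT3* and 3 unnamed probes were higher in Arp5 KO than in wild-type, by 1.44 at most. Under normexp only 7 of the 14 lower probes and 2 of the 11 higher ones stayed beyond 0.8. *PYCARD* at -3.98 and *GSTK1* at -2.75 were still the furthest, and *CHST6* had -1.04. *ETV7* went from -2.05 to -0.45 and *P2RY14* from -1.62 to -0.27, and *TCEAL4*, *LRG1*, *CTSZ*, *KLK1* and *SPINT1* also came within 0.8. Of the higher ones, *HCST* and the unnamed probe A_23_P203807 were those that stayed.

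Between the Arp8 arrays, 65 of the 87 probes lay within 0.5 and 75 within 0.8. Arp8 KO cells were higher for 2 probes, *SULF2* by 1.27 and *GIMAP1* by 0.84, which is 2.3%, where 1.15% of all 23299 probes and 2.32% of those with a dimmest signal under 500 units were. They were lower for 10 probes (11.5%), against 1.21% of all and 2.09% of those dim ones. *P2RY14*, *CDH4* and *JCHAIN* led these with -2.44, -2.39 and -2.00, followed by *LGALS9C* at -1.33 and *KLHL14* at -1.30. *CDH4*, the gene for R-cadherin, had 24.7, 19.1, 50.1 and 264 units, so it entered only just above the limit of 50. *DAPL1*, *KMO*, *MYBPH*, *TUBA8* and *ATXN1* were the other 5. Under normexp *GIMAP1* (0.77), *KMO* (-0.69) and *ATXN1* (-0.52) came within 0.8, and the other 9 probes did not. Thus *P2RY14* and *JCHAIN* had the lowest array in Arp5 KO and the highest on the array labelled Arp8 overexpression.

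**Figure D4:**
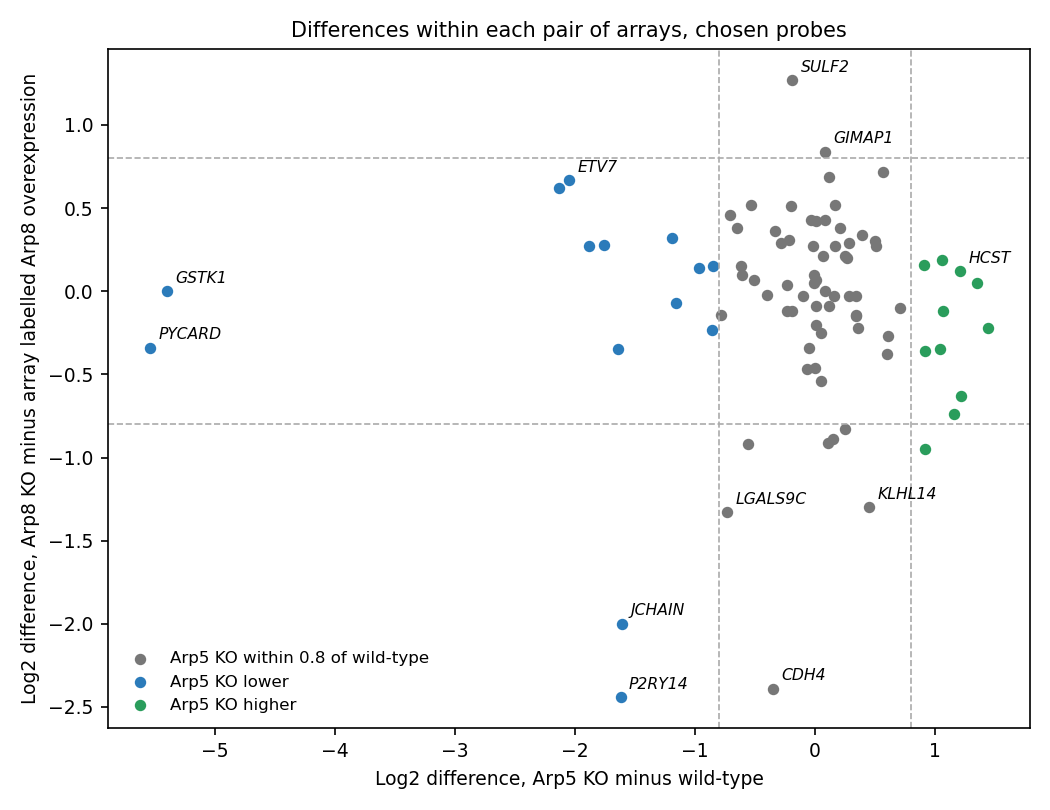
Log2 difference of Arp5 KO minus wild-type (horizontal) against Arp8 KO minus the array labelled Arp8 overexpression (vertical) for the 87 probes, with dashed lines at 0.8 in each direction. These differences share no array, and *PYCARD* at -5.54 and *GSTK1* at -5.40 lie far to the left, while *P2RY14* at -2.44 lies lowest.

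Further probes of the same genes were not used in the choice, although they read the same RNA. There were 23 of these in 20 genes, of which 9 were not well above background on all 4 arrays. Of the other 14, in 12 genes, 10 had a gap above 0 and 8 above 0.5, with a median of 0.57. Over all 27921 probes well above background, 19.3% had a gap above 0 and 1.05% above 0.5, and the median was -0.19. *STK32B*, a kinase gene, had the only one above 0.8, at 1.01, on a probe too dim for the signal limit, and *CD33* followed with 0.79. In 4 probes the gap was 0 or less. They belong to *N4BP2L2* (-0.21), *STAU2* (-0.09 and -0.05) and *RRAD* (-0.05), whose chosen probes had gaps of 1.06, 1.03 and 1.36. For these genes the probes disagree, and whether they read different transcripts was not tested.

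**Figure D5:**
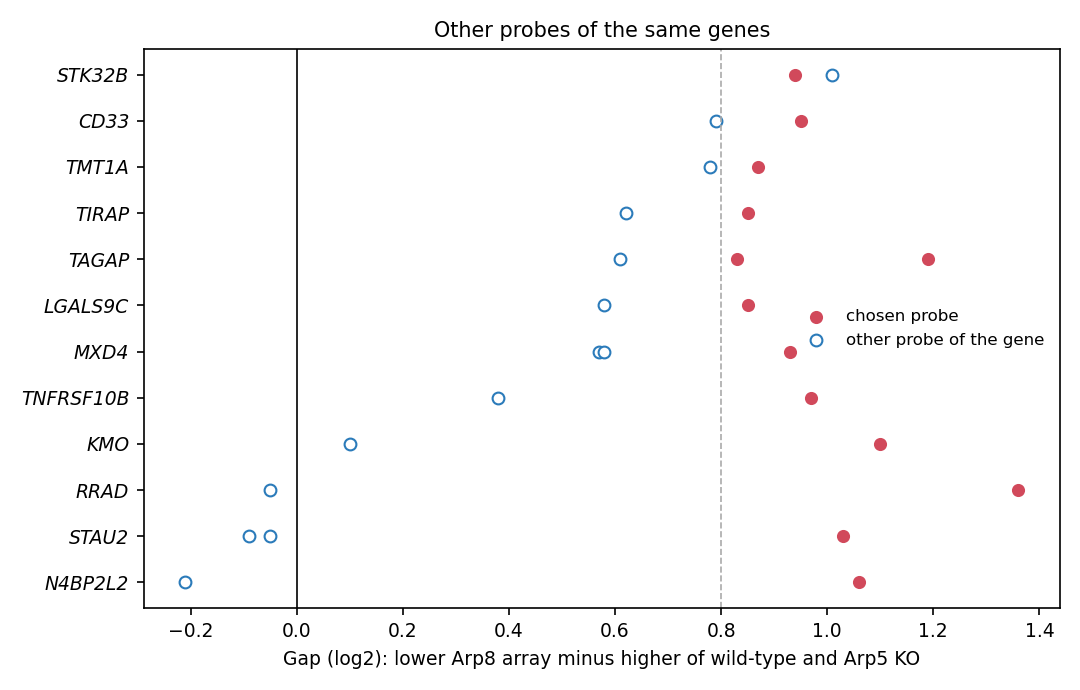
Gap (log2) of the chosen probes (filled) and of the other probes of the same genes (open, only those well above background throughout), for 12 genes. The other probe of *STK32B* lies at 1.01, and those of *RRAD*, *STAU2* and *N4BP2L2* lie below 0.

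The 68 genes were spread over the chromosomes, with 7 on chromosome 1 (10.3%, against 10.2% of the genes that could be chosen), 7 on 19 (10.3%, against 7.54%) and 6 on 12 (8.82%, against 5.27%). None lay on chromosomes 5 and 9, which hold 4.25% and 3.81% of those genes. Chromosome 4 held 5 of them (7.35%), *JCHAIN*, *MXD4*, *STK32B*, *ZFYVE28* and *ZNF518B*, against 3.17%. Neighboring pairs with no measured gene between them were *MXD4* with *ZFYVE28* on chromosome 4, and *PYCARD* with *PYDC1* on chromosome 16. *PYDC1* encodes a small protein that binds the pyrin domain of ASC, and it had 84.8, 26.7, 165 and 212 units, so the pair had the same order of arrays, lowest in Arp5 KO and highest on the array labelled Arp8 overexpression. *ITGAM*, the next measured gene beyond *PYDC1*, had log2 differences to wild-type of -0.41 in Arp5 KO, 0.95 in Arp8 KO and 0.51 on the array labelled Arp8 overexpression. Around the chromosome 4 pair, *HAUS3* and *RNF4* were near wild-type, with 0.24 and 0.04 for *HAUS3* on the Arp8 arrays and 0.07 and -0.01 for one probe of *RNF4*.

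Promoters are shown for these neighboring pairs and for *GSTK1*, which fell most in Arp5 KO after *PYCARD*. They are the 250 bases before the start of each gene, from RefSeq on GRCh38.p14, read 5′ to 3′ on the strand of the gene. Of the 68 genes, 47 have a promoter in that table. Capitals mark CACGTG, the E-box bound by MYC and MAX partners, in the chromosome 4 pair, and GAGGAA, a core letter run of many ETS sites of the PU.1 type, in the others.
MXD4: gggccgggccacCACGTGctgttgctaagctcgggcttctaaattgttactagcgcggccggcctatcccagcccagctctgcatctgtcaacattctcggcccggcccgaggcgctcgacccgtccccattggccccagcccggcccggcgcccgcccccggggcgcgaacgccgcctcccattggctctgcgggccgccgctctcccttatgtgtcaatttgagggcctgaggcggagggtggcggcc
ZFYVE28: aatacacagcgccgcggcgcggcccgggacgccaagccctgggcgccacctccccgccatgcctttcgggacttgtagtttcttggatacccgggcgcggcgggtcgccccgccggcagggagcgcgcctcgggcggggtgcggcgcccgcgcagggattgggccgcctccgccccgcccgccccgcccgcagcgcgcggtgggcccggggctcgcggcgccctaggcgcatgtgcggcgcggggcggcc
PYCARD: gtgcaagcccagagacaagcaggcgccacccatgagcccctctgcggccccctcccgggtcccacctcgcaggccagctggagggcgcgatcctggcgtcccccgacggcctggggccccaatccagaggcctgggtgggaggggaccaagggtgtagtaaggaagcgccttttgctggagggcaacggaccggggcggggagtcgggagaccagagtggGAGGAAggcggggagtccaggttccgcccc
PYDC1: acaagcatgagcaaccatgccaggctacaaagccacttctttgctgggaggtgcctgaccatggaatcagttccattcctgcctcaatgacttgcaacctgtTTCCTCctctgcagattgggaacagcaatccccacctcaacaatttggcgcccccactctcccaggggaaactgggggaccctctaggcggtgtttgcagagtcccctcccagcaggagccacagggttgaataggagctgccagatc
GSTK1: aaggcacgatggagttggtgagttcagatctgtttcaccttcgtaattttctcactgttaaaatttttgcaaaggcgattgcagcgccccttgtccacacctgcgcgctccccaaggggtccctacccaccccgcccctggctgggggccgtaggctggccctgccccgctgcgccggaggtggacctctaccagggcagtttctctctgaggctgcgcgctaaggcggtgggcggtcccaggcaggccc
These stretches lie at chr4:2262110-2262359 (minus strand), chr4:2418646-2418895 (minus strand, the first of 2 starts listed), chr16:31202761-31203010 (minus strand), chr16:31217136-31217385 (minus strand) and chr7:143263191-143263440 (plus strand). *MXD4* has 1 E-box, beginning 238 bases before the start, and *ZFYVE28* has none in this window. *PYCARD* has GAGGAA beginning 30 bases before the start, and *PYDC1* has it on the other strand, so that TTCCTC is in capitals, while *GSTK1* has none. *PYDC1* also differs from its neighbor in CG steps, with 2 in its 250 bases against 16 for *PYCARD*.

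Motifs were searched on both strands in the first listed promoter of each gene, beside the 27305 genes of the table. That set was not limited to genes that could be chosen. GAGGAA was found in 17 of the 47 promoters (36.2%) and in 23.4% of all. The 17 were *ABR*, *CD33*, *CHST6*, *DAPL1*, *EMP3*, *GIMAP1*, *ICAM4*, *LGALS9C*, *MYBPH*, *P2RY14*, *PYCARD*, *PYDC1*, *RNASE6*, *SMPD1*, *SULF2*, *TAGAP* and *TMT1A*. CACGTG was found in 4 (8.51%, against 6.49%), TGANTCA, the AP-1 site, in 2 (4.26%, against 6.6%), and a palindromic EBF1-type site in 1 (2.13%, against 1.08%). The core of the interferon response element was found in 1 (2.13%, against 3.07%) and GCCATNTT, the YY1 site, in none (3.91% of all). The median number of CG steps was 6 in the 47 promoters and 11 in all, at a nearly equal GC content of 58.4% and 58.0%. A match is only a run of letters in this window and says nothing of binding.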

How the data were processed

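Each of the 4 Nalm-6 lines had been measured on 1 Agilent array. The authors deposited the output of Agilent Feature Extraction 10.5.1.1, and its processed signal is a linear intensity from which background and spatial trend had been removed, with no scaling between arrays. The outlier and well-above-background marks of that software were also used. The deposited value table is an intensity equal to the processed signal times a single factor per array, from 0.8073 to 0.8472, with medians of 127, 128, 122 and 119 for wild-type, Arp5 KO, Arp8 KO and labelled Arp8 overexpression. How this factor was set is not given in the sources used here.

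Control spots and outlier spots (between 63 and 153 per array) were left out. The log2 processed signal was taken minus the 75th percentile of its array, and spots of a probe were averaged. Signals in the text are unscaled averages over spots. No spot was saturated. A probe counted as well above background when most of its spots were. Gene names came from matching probe accessions to the RefSeq table of GRCh38.p14, which matched 26222 of 41000 probes (64.0%). The files name another build, so that table gave only names, chromosomes and neighbors. Named genes were, among the chosen probes, the 30 with the largest gap, those with 2 or more probes, those in gene lists or described neighborhoods, the 3 probes on each side of the limit, the 5 largest differences within each pair of arrays, and the INO80 complex genes; further ones named by role were chosen after their values were seen. The members and lists were chosen with earlier results of these data known.

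Alternatives were other gaps, filters, scalings, references and counting units, the value table, and normexp background correction with an offset of 50 followed by quantile normalization, run on the median signal because the columns used here hold no mean signal. The choice was tested on simulated data. Python 3.11.15 with numpy 2.4.6, pandas 2.3.3 and matplotlib 3.10.9, and limma 3.58.1 under R 4.3.3, were used. No test was possible with 1 array per genotype.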

Additional observations from a re-analysis of the deposited data

How the results depend on the processing

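No paired analysis was possible, as every genotype stands on 1 array. The number of chosen probes, 87, depended on the gap more than on the scaling. It was 238 at a gap of 0.5 and 52 at a gap of 1. It was 44 when the minimum of 50 units held on all 4 arrays, 210 with wild-type as the sole reference and 234 with Arp5 KO as the sole reference. Under the other scalings, the value table and the kept outlier spots it was between 87 and 112, and each of these settings contained at least 86 of the 87 probes. Other filters, gene symbols as the unit, and 2 alternatives chosen after seeing the data (every spot of a probe well above background, and genes with near-identical copies left out) gave between 65 and 106.

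Under normexp the number was 41, of which 39 were among the 87. The median log2 difference of the 87 to wild-type became 0.96 in Arp8 KO and 0.94 on the array labelled Arp8 overexpression, and the median gap of the other probes of these genes became 0.33, an alternative added after seeing the data. The added offset of 50 shrinks differences of dim probes by construction, and whether it accounts for the whole change was not tested. No scaling moved the median of all probes by more than 0.06. For the single genes, 2050 of 2212 values moved by less than 0.15, the technical SD of dim probes, the other 162 were all under normexp, and no difference beyond 0.8 changed its sign. Within the pairs of arrays, however, 19 of 37 differences beyond 0.8 came within it under normexp. Signal over background is a limit, since 43 of the 87 probes were under 50 units on a low array.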

Other observations

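The choice required a signal well above background on all 4 arrays, which leaves out probes that were not measurable in wild-type or Arp5 KO cells. There were 7 such probes, well above background with 50 units or more on both Arp8 arrays, that exceeded the same gap when a signal not well above background was raised to the lowest signal that counts as such on its array. Their differences are given for the lower Arp8 array against the higher of wild-type and Arp5 KO. They are minimum values for A_23_P170551 and *TENM2* only, since for the other 5 the higher of these was itself well above background. All 7 probes were singled out after their values were seen.

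The unnamed probe A_23_P170551 had 3.58 units in wild-type and 2.94 in Arp5 KO, neither well above background, against 22385 in Arp8 KO and 97782 on the array labelled Arp8 overexpression, at least 2859-fold higher. The files give it no accession. What it reads was not tested. *TENM2*, which encodes a teneurin adhesion receptor of neurons, had 3.23 and 2.49 units, not well above background, against 796 and 497, at least 63.3-fold higher. The other 5 were *FAM43B*, *CD300LF*, *MRGPRF*, *BARX1* and the unnamed probe A_32_P43664, from 2.69 to 7.35-fold higher. *CD300LF*, an inhibitory receptor gene of myeloid cells, had 15.3 units in wild-type, 5.76 in Arp5 KO, 83.2 in Arp8 KO and 94 on the array labelled Arp8 overexpression.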
